A study of Mus musculus with 81 samples.

Results

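The T cell receptor repertoire of the host's own T cells was compared between blood of 7 previously cured mice and blood of 5 naive mice, drawn on day 73, 7 days after the same challenge with EG7.OVA on day 66. EG7.OVA is an OVA-expressing line made from the mouse T cell lymphoma EL4. The members are these 12 libraries of the 81 in the series, chosen by group and day of blood. Within them, endogenous receptors were the productive (in-frame) TCRβ rearrangements whose CDR3 was not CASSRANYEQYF, the CDR3 of the transferred OT-1 cells, and they numbered 49922 of the 378297 such rearrangements, counted library by library, in the series.

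All mice were of the CD45.1 strain B6.SJL-Ptprca Pepcb/BoyJ (Pep Boy). The cured mice had carried EG7.OVA tumors, had received 1e6 naive OT-1 cells (CD8 T cells whose transgenic receptor recognises an OVA peptide), had been dosed with 2.5e8 cells of mRBC-OVA-4-1BBL-IL-12 (red cells that present this peptide with 4-1BBL and IL-12), had cleared the tumor, and were challenged again. The naive mice were age-matched, had no earlier tumor and no red cell dose, and received 5e5 naive OT-1 cells on day 65. The groups thus differed at the same time in earlier tumor, red cell treatment, OT-1 dose, time since OT-1 transfer and number of challenges, and the parts of these in any difference cannot be told apart. One day 73 title names cured mouse 1 beside the animal code of mouse 2, and that library was assigned to mouse 2 by the code. Its 3 largest rearrangements were found again in both later blood libraries of mouse 2 and in no library of another mouse.

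A TCRβ chain is made by joining V, D and J segments, with random bases (N insertions) added at the joints. The joint encodes CDR3, the loop that meets the peptide on the MHC molecule. A T cell that divides passes its rearrangement to its progeny, so a rearrangement read from genomic DNA marks a clone, and its number of templates follows the number of cells that carry it. In the blood of mice without a strong recent response most rearrangements are rare, and memory responses are known to leave clones that enlarge quickly when the antigen returns.

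The rearrangements on which the comparison turned are printed here as 87-base reads of the sense strand, 5′ to 3′, with the bases from the first codon of CDR3 to the end of the read in capitals. They are the largest endogenous rearrangement of each of the 7 cured mice, a second one of cured mouse 6 that cured mouse 1 shared base for base, the rearrangement of cured mouse 2 whose CDR3 begins like that of OT-1, and, for scale, the largest rearrangement of any naive mouse. CDR3s name the clones, and the read stops before the last CDR3 residue.

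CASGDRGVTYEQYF, cured mouse 5: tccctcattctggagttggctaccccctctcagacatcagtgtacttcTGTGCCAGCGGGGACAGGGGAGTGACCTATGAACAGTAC
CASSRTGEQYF, cured mouse 4: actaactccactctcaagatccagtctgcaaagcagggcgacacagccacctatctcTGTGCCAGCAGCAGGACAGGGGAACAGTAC
Largest clone, cured mouse 6: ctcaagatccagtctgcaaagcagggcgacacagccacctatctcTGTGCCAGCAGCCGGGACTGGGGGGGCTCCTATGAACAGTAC
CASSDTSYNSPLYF, cured mouse 6: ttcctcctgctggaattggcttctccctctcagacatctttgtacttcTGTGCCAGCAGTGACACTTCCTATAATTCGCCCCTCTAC
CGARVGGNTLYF, cured mouse 2: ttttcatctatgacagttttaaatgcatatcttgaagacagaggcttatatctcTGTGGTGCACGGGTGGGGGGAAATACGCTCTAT
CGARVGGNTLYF, cured mouse 3: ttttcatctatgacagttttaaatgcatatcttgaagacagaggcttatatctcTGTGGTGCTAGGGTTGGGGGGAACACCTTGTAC
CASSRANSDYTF, cured mouse 2: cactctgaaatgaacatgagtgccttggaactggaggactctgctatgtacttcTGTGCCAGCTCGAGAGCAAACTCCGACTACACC
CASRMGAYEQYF, cured mouse 7: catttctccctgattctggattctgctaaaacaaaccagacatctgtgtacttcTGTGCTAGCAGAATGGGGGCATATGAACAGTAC
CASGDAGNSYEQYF, cured mouse 1: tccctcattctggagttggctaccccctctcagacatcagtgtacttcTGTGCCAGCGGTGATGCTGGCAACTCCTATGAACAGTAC
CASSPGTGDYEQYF, naive mouse 2: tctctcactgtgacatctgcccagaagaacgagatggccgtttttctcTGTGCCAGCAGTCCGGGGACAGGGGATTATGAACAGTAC

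Depth was alike in the groups. Endogenous templates per library were 5732 ± 1294 (SD, n = 7) in cured mice and 5554 ± 1197 (SD, n = 5) in naive mice (2-sided exact permutation test over all splits of the mice, p = 0.812), with a lowest library of 4195, so that 1 template was between 0.0123% and 0.0238% of a library. OT-1 took 0% to 45.0% of productive templates in cured mice and 0.615% to 2.18% in naive mice, and was left out of all shares of endogenous templates. In such shares, more cells of a clone and fewer cells of the others cannot be told apart. No endogenous rearrangement lay within 2 mismatches of the main OT-1 rearrangement in any of the 12 libraries. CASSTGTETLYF, the CDR3 of the lymphoma itself, had 1 template in naive mouse 5 and 0 in the other 11 libraries. In all 7 cured mice the day 73 library shared more of its templates with the day 65 library of the same mouse than with that of any other mouse, and in naive mice this held for 2 of 5.

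Large endogenous clones were seen in the blood of cured mice and in no naive mouse. A rearrangement with at least 0.5% of endogenous templates was called large, a size that every library resolves. Cured mice 1 to 7 had 0, 3, 0, 2, 2, 4 and 4 such clones, 15 in all, and each of the 5 naive mice had 0. At a minimum of 0.2% the counts were 2, 3, 1, 4, 5, 4 and 11 in cured mice, against 1 in naive mouse 2 and 0 in the other naive mice. The large clones together held 3.39% of endogenous templates in cured mouse 2, 4.10% in mouse 4, 6.73% in mouse 5, 4.83% in mouse 6 and 3.39% in mouse 7.

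The largest endogenous rearrangement held 0.390%, 1.31%, 0.201%, 3.37%, 5.65%, 1.94% and 1.04% of templates in cured mice 1 to 7. In naive mice 1 to 5 it held 0.140%, 0.218%, 0.167%, 0.153% and 0.122%. All cured mice except mouse 3 lay above every naive mouse. The mean was 1.99% ± 1.93 (SD, n = 7) against 0.160% ± 0.0363 (SD, n = 5), a difference of 1.83 percentage points (exact permutation test, p = 0.0379). With cured mouse 5 left out, it was 1.22 points (exact permutation test, p = 0.0195).

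The 10 largest rearrangements together held 1.79%, 4.11%, 1.05%, 5.55%, 8.34%, 5.62% and 5.26% in cured mice 1 to 7. They held 0.879%, 1.19%, 1.10%, 0.976% and 0.746% in naive mice 1 to 5. All cured mice but mouse 3 lay above the naive range, and the means were 4.53% ± 2.49 (SD, n = 7) and 0.977% ± 0.175 (SD, n = 5), or 4.64-fold apart (exact permutation test, p = 0.0126). The spread among cured mice was thus far wider than among naive mice, and mice 1 and 3 were the lowest of the cured mice.

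**Figure D1:**
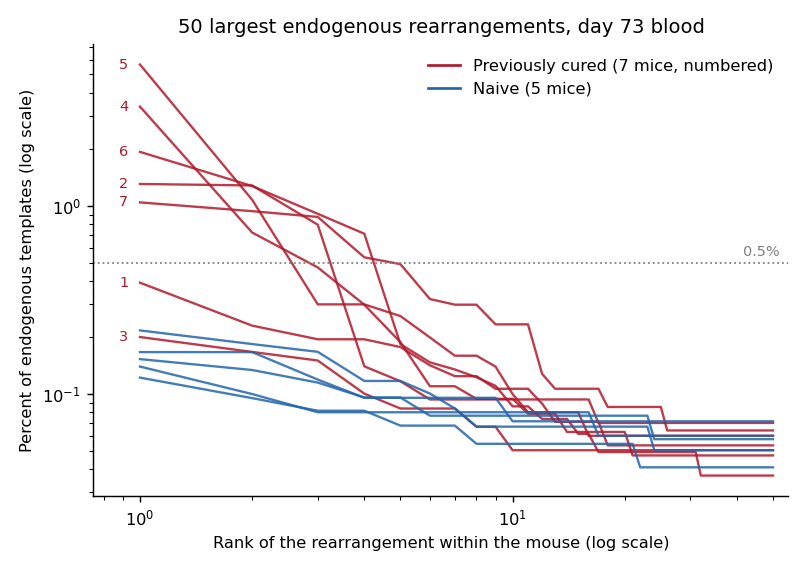
Share of endogenous templates (percent, log scale) of the 50 largest rearrangements of each mouse against their rank (log scale), with cured mice in red, numbered, and naive mice in blue. The curves of 5 cured mice start above 1% and stay above the naive curves over the first ranks, cured mice 1 and 3 start at 0.390% and 0.201%, and no naive mouse exceeds 0.218%.

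Clonality (1 minus the normalized Shannon entropy, which is 0 when all rearrangements are equally frequent) was computed at the depth of the smallest library, 4195 templates. In cured mice 1 to 7 it was 0.0103, 0.0216, 0.00699, 0.0260, 0.0420, 0.0239 and 0.0231, and in naive mice 1 to 5 it was 0.00942, 0.00880, 0.0107, 0.00972 and 0.00720. In 5 cured mice it was above that of all naive mice, with mouse 1 within their range and mouse 3 below it. The means were 0.0220 ± 0.0114 (SD, n = 7) and 0.00916 ± 0.00129 (SD, n = 5), with an exact permutation p of 0.0442.

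The number of different receptors was similar. At 4195 templates, the expected number of rearrangements was 3270 ± 194 (SD, n = 7) in cured mice and 3311 ± 158 (SD, n = 5) in naive mice (exact permutation test, p = 0.702). Rearrangements with 1 template held 62.3% ± 6.92 (SD, n = 7) and 61.3% ± 6.51 (SD, n = 5) of templates at that depth (exact permutation test, p = 0.802). The lowest singleton shares, 52.5% and 52.6%, belonged to the 2 smallest libraries, naive mouse 3 and cured mouse 2. Richness at this depth also went with library size in naive mice, from 3100 in the smallest library to 3522 in the largest (7371 templates). The lowest cured values, 3027 and 3050, were those of the smallest cured libraries, mice 2 and 7. The largest cured library, of mouse 6 (8154 templates), had 3380, below the 3549 of mouse 3. Equal depth thus did not fully remove library size.

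In all, 13 repertoire measures were compared and adjusted together by the Benjamini-Hochberg method. By the exact permutation test, 6 of these had an unadjusted p under 0.05, namely the share of the largest clone, that of the 10 largest, the number of large clones (exact p = 0.0455), clonality, and the pair of measures against day 65 described next. Many of the same large clones enter into each of the 6, so these are not separate results. None of the 13 passed after adjustment, where the lowest adjusted p was 0.0821 (exact permutation tests). The differences in large clones are therefore given as values per mouse, and not as an effect established over mice.

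**Figure D2:**
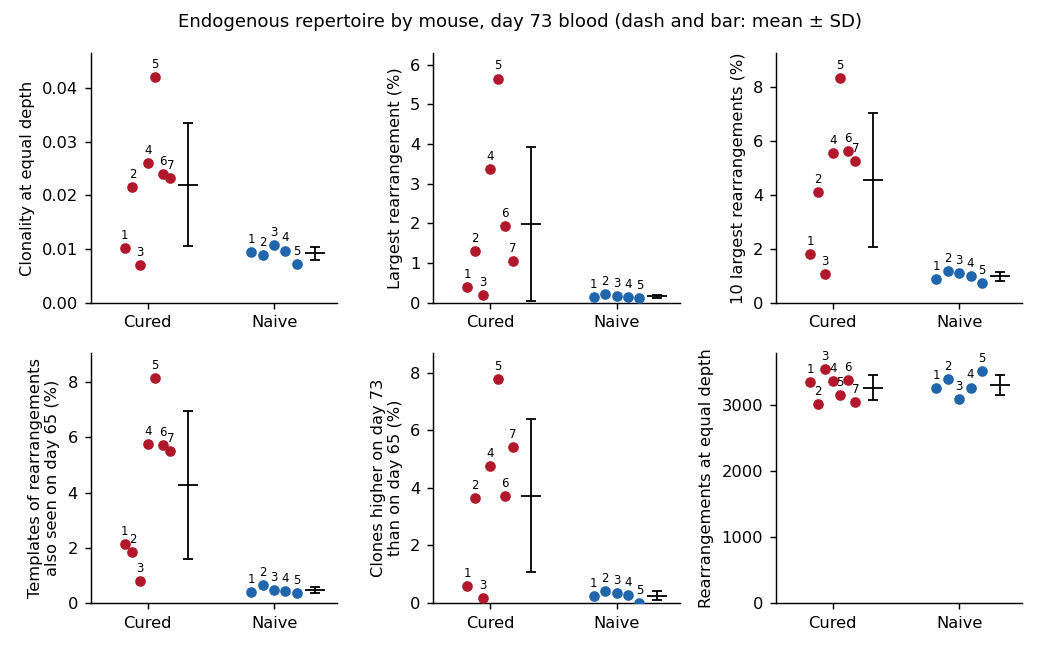
Clonality, share of the largest and of the 10 largest rearrangements (percent), share of templates whose rearrangement was also seen on day 65 (percent), share in clones higher on day 73 than on day 65 (percent) and number of rearrangements at 4195 templates, for each mouse (point, numbered), with mean ± SD beside the points. Cured mice 2, 4, 5, 6 and 7 lie above all naive mice in the first 5 panels, all 7 cured mice do so in the panel of templates seen on day 65, cured mouse 3 lies within or below the naive range in clonality and in clones higher on day 73, and the groups overlap in the last panel.

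Every mouse had also been bled on day 65, 1 day before the challenge. The share of day 73 endogenous templates whose rearrangement was also found in the same mouse on day 65, at a day 65 depth of 3184 templates for every mouse, was 2.14%, 1.85%, 0.787%, 5.77%, 8.14%, 5.71% and 5.50% in cured mice 1 to 7. In naive mice 1 to 5 it was 0.382%, 0.648%, 0.477%, 0.431% and 0.371%. The groups did not overlap, and the means were 4.27% ± 2.69 (SD, n = 7) and 0.462% ± 0.112 (SD, n = 5), 9.25-fold apart (exact permutation test, p = 0.0114; adjusted p = 0.0821). For scale, at full depth the share of day 73 templates also found on day 65 in the best matching other mouse was 0.405% to 1.51% for cured mice and 0.440% to 0.692% for naive mice. The own share of naive mice at full depth, 0.477% to 0.770%, was of the same size as this sharing between different mice.

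Clones were then compared between day 65 and day 73 within each mouse (2-sided Fisher's exact test, Benjamini-Hochberg within the mouse, clones with at least 5 templates in both libraries together). In cured mice 51 of the 193 clones tested, 26.4%, had a higher share on day 73, and 2 had a lower share. In naive mice 8 of 51 clones, 15.7%, were higher and 11 were lower. The numbers of higher clones were 3, 5, 1, 9, 8, 12 and 13 in cured mice 1 to 7 and 2, 2, 2, 2 and 0 in naive mice 1 to 5. Each of the 8 clones of naive mice was absent on day 65, and the lower clones of naive mice were all absent on day 73, whereas 20 of the 51 in cured mice had been found on day 65. These tests cover counting error only, since each mouse gave 1 library per day, and the deposited depth on day 65 was larger in cured mice (7350 to 11991 endogenous templates) than in naive mice (3184 to 6192).

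The clones higher on day 73 held 3.73% ± 2.67 (SD, n = 7) of day 73 endogenous templates in cured mice and 0.252% ± 0.153 (SD, n = 5) in naive mice (exact permutation test, p = 0.0253; adjusted p = 0.0985). With both libraries of every mouse drawn down to 3184 templates the difference was 2.90 percentage points (exact permutation test, p = 0.0189), against 3.48 at full depth. On day 65 the same 51 clones had held 0.497% ± 0.478 (SD, n = 7) of endogenous templates in cured mice. The cured mice were challenged again on day 127, with EL4, and bled 1 day before it and 9 days after it. The 51 clones held 1.22% ± 1.31 (SD, n = 7) in the blood before EL4, where 28 of them were found. They held 1.17% ± 0.946 (SD, n = 7) in the blood after EL4, where 31 were found. In all 7 mice the later shares lay between those of day 65 and day 73. The clones were chosen for being high on day 73, so a lower share on other days is in part fixed by that choice.

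Clonality changed between day 65 and day 73 by 0.0120 ± 0.0107 (SD, n = 7) in cured mice, where it was higher in 6 of 7, and by -0.000509 ± 0.00136 (SD, n = 5) in naive mice, where it was higher in 1 of 5. The changes differed by 0.0125 (exact permutation test, p = 0.0164). When the change was adjusted with the 13 measures the p was 0.0766. On day 65 clonality at 3184 templates was 0.00791 ± 0.00375 (SD, n = 7) in cured mice and 0.00813 ± 0.00202 (SD, n = 5) in naive mice (exact permutation test, p = 0.923).

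All 15 large clones of cured mice were found again in the blood before and after EL4. Of the 15, 13 had been detected on day 65, and 14 had a higher share on day 73 than on day 65. This count rests on the same day 73 values by which the clones were chosen, and reads beside the 26.4% of all tested clones. The largest was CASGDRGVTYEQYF of cured mouse 5, joined from TCRBV13-02 and TCRBJ02-07. It had 27 templates on day 65 (0.322%), 283 on day 73 (5.65%, 95% Wilson interval 5.04% to 6.32%), 105 before EL4 (0.879%) and 174 after it (0.787%). It was found in no library of another mouse.

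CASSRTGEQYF of cured mouse 4, with TCRBV14-01 and TCRBJ02-07, had 77 templates on day 65 (0.784%), 215 on day 73 (3.37%, interval 2.96% to 3.85%), 133 before EL4 (1.23%) and 209 after it (1.29%). The largest clone of cured mouse 6, from the same segments and with a CDR3 of 15 residues, was the exception among the 15. It held 2.51% on day 65, then 1.94% on day 73, 2.28% before EL4 and 2.69% after it, and its share on day 73 was lower than on day 65 (Fisher's exact test, adjusted p = 0.0390). This clone was thus large before the challenge.

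Cured mouse 2 had no OT-1 template among 4281 productive templates on day 73, which allows a share of up to 0.0701%. Its endogenous T cells included 3 large clones. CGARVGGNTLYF (TCRBV20-01, TCRBJ01-03) went from 4 templates on day 65 to 56 on day 73, or 0.0472% to 1.31%. A clone with a CDR3 of 16 residues (TCRBV05-01, TCRBJ02-07) had 0 of 8467 templates on day 65 and 55, or 1.28%, on day 73. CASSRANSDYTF (TCRBV12-01, TCRBJ01-02) had 0 on day 65 and 34, or 0.794%, on day 73, and 9 and 7 templates before and after EL4. It has the V segment of OT-1 and the same first 7 residues of CDR3, with another J segment, and was singled out after its values were seen. Endogenous rearrangements with TCRBV12-01 and a CDR3 beginning CASSRAN were otherwise found in naive mouse 2 alone, as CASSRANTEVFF with 1 template. Across cured mice OT-1 stood at 32.3%, 0%, 25.3%, 33.8%, 24.02%, 8.38% and 45.0% of productive templates in mice 1 to 7. Mice 6 and 7, with 8.38% and 45.0% OT-1, had 4 large clones each, and mice 1 and 3 had 0. Whether the number of large clones goes with the OT-1 share was not tested.

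The other large clones were spread over several V segments. In cured mouse 6 they were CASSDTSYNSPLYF (TCRBV13-01), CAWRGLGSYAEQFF and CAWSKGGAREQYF (both TCRBV31-01), at 1.28%, 0.908% and 0.711%. In cured mouse 7 they were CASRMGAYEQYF, a CDR3 of 15 residues and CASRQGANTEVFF (all TCRBV29-01) and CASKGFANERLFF (TCRBV14-01), at 1.04%, 0.938%, 0.533% and 0.874%. Cured mouse 4 also had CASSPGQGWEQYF (TCRBV19-01) at 0.722%, and cured mouse 5 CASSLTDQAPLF (TCRBV15-01), which has no N insertion, at 1.08%. Of the 15 clones, 3 used TCRBV14-01, 3 TCRBV29-01 and 2 TCRBV31-01, and 7 used TCRBJ02-07. Of the 51 clones higher on day 73, 7 used TCRBV31-01, the segment of 6.09% of endogenous templates in cured mice, and 25 used TCRBJ02-07, that of 29.2%. Clones and templates are different units, and whether these counts depart from those of the other clones was not tested.

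The largest rearrangements of naive mice were of another size. They had 7, 13, 7, 8 and 9 templates in naive mice 1 to 5, with the CDR3s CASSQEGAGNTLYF, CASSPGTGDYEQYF, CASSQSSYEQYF and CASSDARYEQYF in the first 4 and one of 15 residues in mouse 5. That of mouse 5 alone had been found on day 65, with 2 templates, and of the cured mice's 7 largest rearrangements all had been found on day 65. The largest of cured mouse 1, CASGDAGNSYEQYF, went from 7 templates on day 65 to 22 on day 73 (Fisher's exact test, adjusted p = 0.00963), 6 before EL4 and 52 after it. In cured mouse 3, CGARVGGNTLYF had 8 templates on day 65 and 12 on day 73, and was not among its higher clones.

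**Figure D3:**
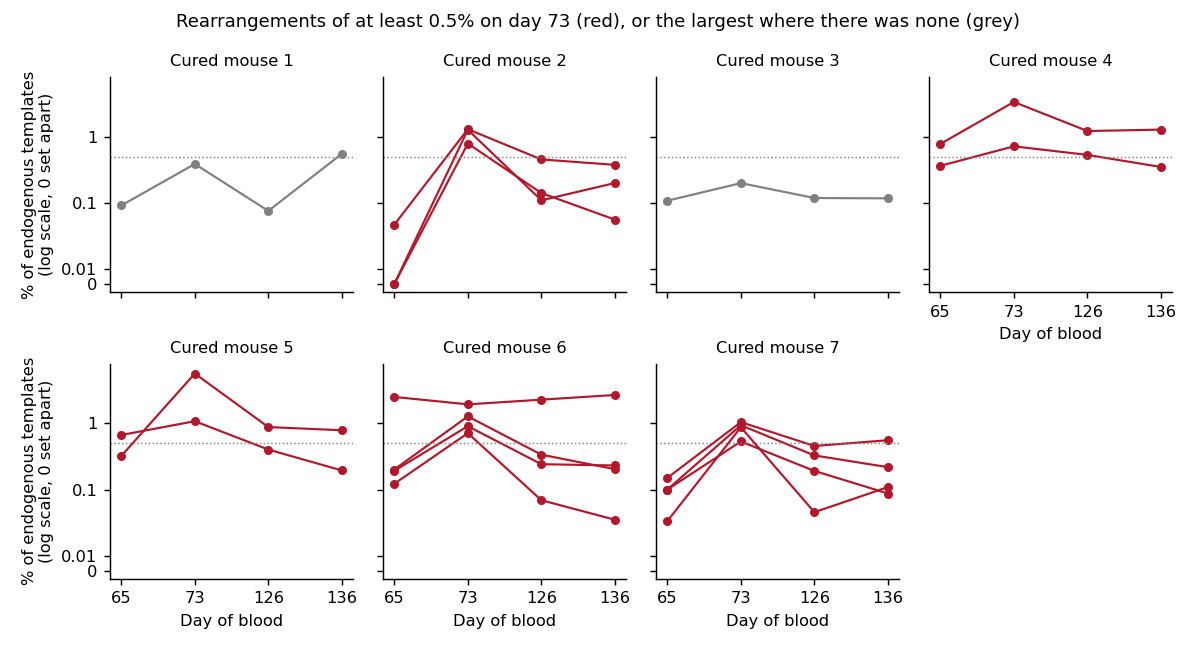
Share of endogenous templates (percent, log scale, 0 drawn apart at the bottom) on day 65, on day 73 and at the later bleeds before and after EL4 of the 15 rearrangements that held at least 0.5% on day 73 (red), and of the largest rearrangement of cured mice 1 and 3 (grey), with a dotted line at 0.5%. Most lines peak on day 73 and remain detectable later, and the largest clone of mouse 6 stays between 1.94% and 2.69% on all 4 days.

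Sharing of large clones between mice was rare. Of the 15 large clones, 1 rearrangement, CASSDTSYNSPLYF of cured mouse 6, was found in a library of another mouse. Among the 20 largest rearrangements of each mouse, whatever their share, 4 CDR3s occurred in more than 1 mouse. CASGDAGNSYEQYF (TCRBV13-02, TCRBJ02-07) was encoded by the same 87 bases in cured mice 1 and 5, with 22 and 8 templates, and was higher on day 73 than on day 65 in each of them. In cured mouse 5 it had 0 templates on day 65 and 0 both before and after EL4, so there it rests on the day 73 library alone. In cured mouse 1 it had 7, 6 and 52 templates in those 3 libraries. It was the only CDR3 among the higher clones of more than 1 cured mouse, out of 50. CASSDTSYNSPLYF was encoded by the same bases in cured mice 1 and 6, with 7 and 104 templates on day 73, and was found in 9 of the 81 libraries, 8 of them the 4 libraries of each of these mice. The rearrangement of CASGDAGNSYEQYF was found in 7 of the 81 libraries. Of these, 5 were of cured mice 1 and 5 (in mouse 5 that of day 73 alone) and 2 of the separate treatment experiment. That of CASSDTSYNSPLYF was likewise in 1 library of that experiment. The 5 naive libraries of day 73 held neither CDR3.

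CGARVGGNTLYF was the largest clone of cured mouse 2 and of cured mouse 3. The 2 rearrangements, printed above, differed at 9 of 87 positions and used TCRBJ01-03 and TCRBJ02-04, and each was found in the 4 libraries of its own mouse and nowhere else in the series. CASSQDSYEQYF, the remaining CDR3, had 3 templates each in cured mouse 3 and naive mouse 3, and 2 or 3 in 5 other mice, so it was common and small.

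The overlap of whole repertoires was low. Of 41804 endogenous CDR3s in the 12 libraries, 91.1% were found in 1 library and none in all 12. The mean Morisita-Horn overlap of CDR3s (0 for no shared CDR3, 1 for equal repertoires) was 0.0180 within cured mice, 0.0378 within naive mice and 0.0247 between the groups, and the difference within groups had an exact permutation p of 0.0922. The highest value of any pair, 0.0702, was that of cured mice 2 and 3, which share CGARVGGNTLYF. CDR3s found in at least 7 of the 14 day 0 blood libraries of the separate treatment experiment, 66 in all, held 0.984% ± 0.224 (SD, n = 7) of templates in cured mice and 1.00% ± 0.260 (SD, n = 5) in naive mice (exact permutation test, p = 0.929). Of the 60 CDR3s found in at least 6 of the 12 libraries, 0%, that is none, passed the test between the groups by edgeR's quasi-likelihood test with Benjamini-Hochberg adjustment. None had an unadjusted p under 0.05 by edgeR or DESeq2 and 1 did by the exact permutation test, and most had only a few templates per library.

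V segment use showed no called difference, and single cured mice stood apart in single segments. Of 23 V segments tested, 0% were called at an adjusted p under 0.05 (edgeR's quasi-likelihood test), and 4, or 17.4%, had an unadjusted p under 0.05. DESeq2 and the exact permutation test also called none after adjustment, and each gave 3 at an unadjusted p under 0.05. The groups overlapped in all 23. The 4 of edgeR were TCRBV03-01, TCRBV23-01 and TCRBV16-01, lower in cured mice on average, and TCRBV31-01, higher in cured mice. The 3 of the permutation test were TCRBV03-01, TCRBV16-01 and TCRBV13-01. All were singled out after their values were seen. When every rearrangement was counted once, whatever its templates, TCRBV31-01 alone was called, with a log2 fold change of 0.22 (edgeR, adjusted p = 0.0394).

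Among the V segments of highest use, TCRBV13-02 held 11.3% ± 1.93 (SD, n = 7) of templates in cured mice and 11.03% ± 0.558 (SD, n = 5) in naive mice (edgeR, adjusted p = 0.798). Cured mouse 5 stood apart at 15.7%, and the other cured mice were between 10.4% and 10.9%. The clone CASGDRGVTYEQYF uses this segment, and without the 10 largest rearrangements of each mouse cured mouse 5 was at 10.8%. TCRBV03-01 held 6.95% ± 0.376 (SD, n = 7) and 7.84% ± 0.612 (SD, n = 5), with a log2 fold change of -0.17 ± 0.07 (SE; edgeR, adjusted p = 0.239). TCRBV19-01 held 7.51% ± 0.963 and 7.24% ± 0.377, TCRBV02-01 6.43% ± 0.416 and 6.06% ± 0.448, TCRBV05-01 5.98% ± 0.604 and 5.99% ± 0.658, and TCRBV13-03 5.73% ± 0.482 and 6.11% ± 0.310 in cured and naive mice (SD). TCRBV12-01, the segment of OT-1, held 4.51% ± 0.580 (SD, n = 7) of endogenous templates in cured mice and 5.06% ± 0.675 (SD, n = 5) in naive mice (edgeR, adjusted p = 0.329).

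In some segments, singled out after their values were seen, mice with large clones of that segment stood high. TCRBV14-01 was at 6.79% in cured mouse 4 and 4.72% in cured mouse 6, and between 2.50% and 3.05% in the other 10 mice. Without the 10 largest rearrangements of each mouse, these 2 mice were at 3.62% and 2.95%, and the other 10 between 2.20% and 3.08%. Cured mouse 4 was thus still the highest. TCRBV29-01 was at 5.84% in cured mouse 7, against 2.37% to 4.48% elsewhere, and at 3.51% without its 10 largest. This did not hold for every large clone. Cured mouse 7, with a large TCRBV14-01 clone, was at 2.96% in that segment, and cured mouse 2, with large TCRBV12-01 and TCRBV05-01 clones, was at 4.98% and 6.35% in those, all within the range of naive mice. The SD was larger among cured than naive mice in 13 of the 23 segments. Over the 23 the median SD was 0.428 percentage points among cured mice and 0.394 among naive mice, and 0.311 and 0.378 without the 10 largest.

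**Figure D4:**
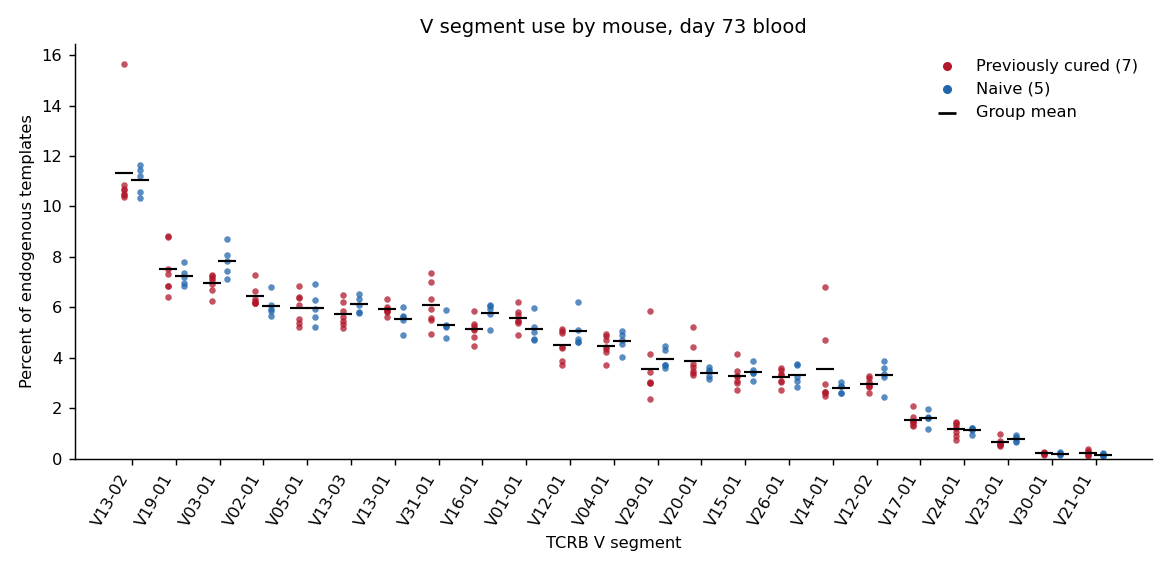
Percent of endogenous templates with each of the 23 TCRB V segments tested, in order of mean use, with a point per mouse (cured in red, naive in blue) and a dash at the group mean. The means lie close together in every segment. Points that stand apart include cured mouse 5 in V13-02 at 15.7% and cured mice 4 and 6 in V14-01 at 6.79% and 4.72%. Others are cured mouse 7 in V29-01 at 5.84% and cured mouse 2 in V20-01 at 5.21%.

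J segment use had no called difference either. TCRBJ02-07, the J segment of OT-1 and the most used, held 29.2% ± 1.40 (SD, n = 7) of endogenous templates in cured mice and 29.2% ± 0.380 (SD, n = 5) in naive mice (edgeR, adjusted p = 0.995). Cured mice ranged from 27.3% to 30.9% and naive mice from 28.9% to 29.7%. TCRBJ02-05 held 9.23% ± 0.702 and 9.24% ± 0.183, TCRBJ02-01 8.31% ± 0.468 and 8.49% ± 0.293, and TCRBJ01-01 8.51% ± 0.544 and 8.16% ± 0.352 in cured and naive mice (SD). Of 12 J segments, 0% were called after adjustment and none had an unadjusted p under 0.05 by edgeR, DESeq2 or the exact permutation test.

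Mean CDR3 length was close in the groups. It was 13.8 ± 0.0518 amino acids (SD, n = 7) in cured mice and 13.8 ± 0.0226 (SD, n = 5) in naive mice, with a difference of -0.0220 (exact permutation test, p = 0.408; adjusted p = 0.663). Of 10 length classes, 0% were called after adjustment and none had an unadjusted p under 0.05 by edgeR, DESeq2 or the exact permutation test. A CDR3 of 14 amino acids was the most common, at 31.2% ± 2.15 (SD, n = 7) and 31.0% ± 0.665 (SD, n = 5). Again single cured mice stood out at the length of their largest clone. Cured mouse 4 had 7.61% of templates at 11 amino acids, against 3.78% to 4.86% in the other 11 mice, and cured mouse 5 had 34.9% at 14. Without the 10 largest rearrangements these were 4.49% and 31.2%.

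**Figure D5:**
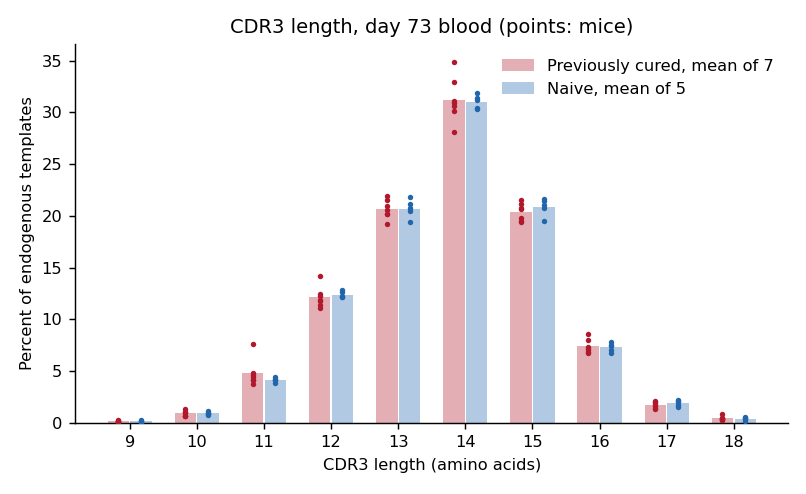
Percent of endogenous templates by CDR3 length in amino acids, with bars at the group means (cured in red, naive in blue) and a point per mouse. The bars nearly coincide at every length, and cured mouse 4 at 11 amino acids (7.61%) and cured mouse 5 at 14 (34.9%) lie away from the other mice.

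The make-up of the joints gave no p under 0.05. N insertions averaged 3.41 ± 0.0407 bases (SD, n = 7) in cured mice and 3.41 ± 0.0395 (SD, n = 5) in naive mice (exact permutation test, p = 0.953). Rearrangements without an N insertion held 8.15% ± 0.435 (SD, n = 7) and 8.60% ± 0.448 (SD, n = 5) of templates (exact permutation test, p = 0.120). Non-productive rearrangements, which are not selected by antigen in themselves, were 32.9% ± 1.59 (SD, n = 7) and 33.4% ± 1.39 (SD, n = 5) of all templates other than OT-1 (exact permutation test, p = 0.544).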

How the data were processed

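Genomic DNA of blood was amplified by multiplex PCR with the immunoSEQ assay and sequenced. The authors had the sequences collapsed and filtered, and the deposited files give the raw template count of every rearrangement. Genome build and annotation are not given in the sources used here, so no coordinates are printed. Endogenous templates were productive ones without the CDR3 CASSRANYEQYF. Clonality, richness and singletons are hypergeometric expectations at 4195 templates. Mean values of the groups were compared by exact permutation (2-sided, all splits of the mice, smallest p 0.00126) and adjusted over 13 measures. Templates per V segment, J segment, CDR3 length and shared CDR3 were tested with edgeR 4.0.16 (quasi-likelihood, library size the endogenous templates, and no dispersion trend for the sets of few features). Segments and lengths needed at least 10 templates in at least 5 libraries, and shared CDR3s had to be found in at least 6 of the 12 libraries. The alternatives were DESeq2 1.42.0, TMM scaling, other depths and definitions, and leaving out each mouse. Scripts were tested on simulated data. Of 67894 endogenous templates, 101 had no V or J name. Templates without molecular identifiers are not independent molecules, so Wilson intervals and the floor of 3 templates cover counting error only. The genes named by rule were the 6 V and 4 J segments of highest mean use, the segments of OT-1, the largest rearrangement of each mouse, CDR3s among the 20 largest of at least 2 mice, features past the threshold, and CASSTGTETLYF. Other segments and clones, among them TCRBV14-01, TCRBV29-01 and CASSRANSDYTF, were named after their values were seen. The members, lists and tests were chosen with earlier results of these data known.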

Additional observations from a re-analysis of the deposited data

Results flagged for a closer look

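Cured mouse 5 stood far above the other 6 cured mice in the share of TCRBV13-02, at 15.7% of endogenous templates, beyond Dixon's 95% limit. Chance alone gives about 1 such value in 20 groups, and 52 groups of values were examined. The change in clonality from day 65 to day 73 differed between cured and naive mice by 0.0125 (exact permutation test, p = 0.0164), higher in 6 of 7 cured and 1 of 5 naive mice, and the adjusted p was 0.0766 together with the other measures.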

How the results depend on the processing

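No comparison between groups passed adjustment, so direction and the side of an unadjusted p of 0.05 are followed here for the measures. For V segments, J segments, lengths and CDR3s, only the number of calls after adjustment was followed. Of 331 alternative values over the measures and these counts, 277 kept direction and side, or the number of calls. V segments with an unadjusted p under 0.05 numbered 4 in the main setting and 1 to 6 in the alternatives. In a replicate block by mouse number (mice 1 to 5, where the smallest p is 0.0625), the difference was 0.0122 for clonality (p = 0.188, exact), 2.02 percentage points for the largest clone (p = 0.0625, exact), 3.19 for the 10 largest (p = 0.125, exact), 1.4 large clones (p = 0.25, exact), 3.28 for templates seen on day 65 (p = 0.0625, exact), 3.14 for higher clones (p = 0.125, exact), 0.0129 for the change in clonality (p = 0.0625, exact) and -98.6 endogenous templates. The mice are different animals that share only a number. Deviations of V segment use in same-numbered mice correlated at 0.0057 to 0.237 and 0 of 5 mice correlated best with their own number, and no V, J, length or CDR3 call was made under the block.

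With clones defined by CDR3 the clonality difference was 0.0128 (exact permutation test, p = 0.0518), and by ranks it was 3.94 ranks (exact permutation test, p = 0.0732). The change in clonality at full depth differed by 0.00936 (exact permutation test, p = 0.0530). Differences that were small in the report turned sign: richness at full depth (67.5), singleton share at 1000 templates (-2.32 points), N insertions with each rearrangement counted once (0.0170) or by ranks (0.171), and public CDR3s at 10 of 14 libraries (0.0227), counted once (0.000453) or by ranks (0.171). TCRBV31-01 was called when each rearrangement was counted once (1 against 0). Log2 fold changes of named segments that turned sign were 0.028 (DESeq2) and 0.0024 (without the 10 largest) for TCRBV05-01, -0.024 (each once) and -0.026 (without the 10 largest) for TCRBV13-02, -0.0090 (each once) for TCRBV19-01, 0.030 (each once) for TCRBJ02-01, 0.0073 and 0.030 (each once, without the 10 largest) for TCRBJ02-05, and -0.020 (TMM), -0.0042 (DESeq2), -8.4e-05 (permutation), -0.061 (each once) and -0.059 (without the 10 largest) for TCRBJ02-07. The cause was not tested.

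Leaving out each mouse in turn gave differences of 0.00949 to 0.0153 for clonality, 1.22 to 2.12 for the largest clone, 1.83 to 2.5 for the number of large clones, 0.00933 to 0.0147 for the change in clonality, -0.0252 to -0.0148 for overlap, -226 to 632 templates, -94.1 to 11.4 for richness, -1.19 to 3.17 for singletons, -0.0151 to 0.0112 for N insertions, -0.588 to -0.305 for the share without them and -0.109 to 0.0493 for public CDR3s. Over named segments it gave -0.049 to 0.054 for TCRBV05-01, -0.060 to 0.055 for TCRBV13-02, -0.032 to 0.020 for TCRBJ02-05 and -0.013 to 0.016 for TCRBJ02-07. The p of clonality exceeded 0.05 without naive mouse 2 (p = 0.0515) or 5 (p = 0.0636), that of the largest clone without each of the 5 naive mice (p up to 0.0727), that of the number of large clones without each mouse but cured mice 1 and 3 (p up to 0.0788), and that of the change in clonality without naive mouse 3 (p = 0.0515), all exact permutation tests with fewer splits. The p of overlap was under 0.05 without cured mouse 3 (p = 0.0108), and that of the share without N insertions when leaving out cured mouse 2 (p = 0.0476) or naive mouse 2 (p = 0.0364, exact). The 10 largest clones, templates seen on day 65 and higher clones kept p under 0.05 without each mouse, among them cured mouse 2, whose title is at odds with its code. Leaving out rearrangements of 1 template, chosen after seeing the data, gave a difference of 8.11 points in templates seen on day 65 (exact permutation test, p = 0.0114). Depth limits clones under 3 templates, 0.0368% to 0.0715% of a library.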
